A study of Mus musculus with 6 samples.

Results

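The response of the tumor suppressor p53 reaches well beyond cell cycle arrest and cell death, and 10 mouse genes from its DNA repair and stress branch were followed here in liver tumor cell lines. The members were the sestrins *Sesn1* and *Sesn2*, the DNA repair genes *Xpc*, *Ercc5*, *Polk* and *Rrm2b*, the growth control genes *Btg2*, *Plk2* and *Plk3*, and the secreted cytokine *Gdf15*. They were found by gene symbol in the deposited expression table and are 10 of its 20856 genes with values. p53 is a transcription factor that damage and oncogenic stress stabilise. It binds paired decamer elements in promoters and introns of its targets and turns on genes that repair DNA, balance the nucleotide pool, restrain growth signalling and slow proliferation. Several of these genes also answer to nutrient, redox and endoplasmic reticulum stress through other factors, among them ATF4.

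RNA was sequenced from 6 cell lines cultured from liver tumors of C57BL/6 mice, with no treatment in culture. All tumors had been started by hydrodynamic injection of a *Myc* transposon together with px330, a plasmid that expresses Cas9 and a guide RNA. The guide targeted *Trp53*, the gene of p53, in 3 lines (Myc;sgp53/Cas9, here *Myc*; sg*Trp53*) and *Kmt2c*, the gene of the histone methyltransferase MLL3, in the other 3 (Myc;sgMll3/Cas9, here *Myc*; sg*Kmt2c*). No line with both genes intact was analysed here, so every difference below is between the genotypes, and a loss of p53 cannot be told apart from an intact *Kmt2c*. The lines are not isogenic. Each genotype is represented by 3 lines that the paper describes as independent and as coming from different mice. The sg*Kmt2c* lines 2 and 3 carry the labels 2A and 2T1. Serial passage was used to clear fibroblasts from the cultures, judged by eye.

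The targeted genes were read first. *Trp53* RNA measured 17.2, 17.6 and 19.4 RPKM (reads per kilobase of transcript, scaled to the reads of the library) in sg*Trp53* lines 1, 2 and 3, against 92.2, 124 and 121 RPKM in sg*Kmt2c* lines 1, 2 and 3 (log2 fold change 2.56, adjusted p = 0.014 from limma). That call held without sg*Kmt2c* line 1 (adjusted p = 0.0118, limma) and was lost when any other line was left out, at up to 0.108. Every sg*Kmt2c* line was above every sg*Trp53* line, which leaving out a line cannot undo. *Kmt2c* RNA measured 24.2, 18.4 and 19.2 RPKM against 19.7, 25.0 and 9.51 RPKM, which overlap. Values of 3 lines are given below in the order of lines 1, 2 and 3, with the sg*Trp53* lines first and the sg*Kmt2c* lines after "against". RPKM counts reads over the whole transcript and does not show small insertions or deletions at a guide site. Depth ran from 5312182 to 6878625 reads on listed genes in the sg*Trp53* libraries and from 3680068 to 4704539 in the sg*Kmt2c* libraries. The sg*Kmt2c* line 1 library stands apart from the others (Pearson r of log2 values across the 11617 tested genes of 0.759 to 0.836 with the other libraries, against 0.881 to 0.951 among those). It was the lowest library for 35.9% of all tested genes and the highest for 23.6%, so member results are given with and without it. Marker levels also differed between lines. Summed RPKM of 10 hepatocyte markers was 50.3, 30.1 and 77.8 against 5706, 2.82 and 338, while albumin (*Alb*) itself reached at most 4.36 RPKM in any line. Most of the 5706 came from *Apob* (4385 RPKM) and *Hnf4a* (1186 RPKM), at listed transcript lengths of 1118 and 431 bases. Of the 10 hepatocyte markers, 6 were tested. Those of 6 epithelial markers summed to 1013, 63.5 and 818 against 6801, 238 and 678 RPKM. Summed RPKM of 9 fibroblast markers was 18.5, 996 and 290 against 0.282, 156 and 121, and *Col3a1* alone made up 814 of the 996. Summed RPKM of 6 immune markers was 36.8, 20.03 and 49.8 against 5.35, 5.51 and 14.2. *Cd3e* and *Cd79a* were at 0 in every library, and the macrophage gene *Lyz2* was lower in every sg*Kmt2c* line (unadjusted p = 0.0105, limma). The other tested immune marker, *Cd68*, overlapped, with 7.60, 2.60 and 4.01 RPKM against 5.35, 5.29 and 1.71 RPKM (unadjusted p = 0.73, limma). The endothelial markers summed to at most 1.27 RPKM. None of the tested hepatocyte, epithelial or fibroblast markers had an unadjusted p-value under 0.05 between genotypes, and the part of these differences in the member results was not tested. In bulk samples of this kind, fewer cells of a type and less RNA per cell cannot be told apart.

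Promoter windows from RefSeq (GRCm38.p6, 250 bases before to 50 after a start site) were at hand for 8 of the 10 members, 11 windows in all. Each was searched on the annotated strand for the best match to the p53 consensus, a pair of decamers with 0 or 1 base between them, scored over 20 positions. The best matches are shown for the 5 members that were higher in every sg*Kmt2c* line, and for *Sesn1*, which was not, with the matched element in capitals and its flanks in lower case.
*Polk* (chr13:96519388-96519428, minus strand, 1 mismatch): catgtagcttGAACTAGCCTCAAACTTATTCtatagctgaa
*Sesn1* (chr10:41887256-41887295, plus strand, 3 mismatches): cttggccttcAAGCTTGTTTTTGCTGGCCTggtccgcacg
*Gdf15* (chr8:70632634-70632674, minus strand, 4 mismatches): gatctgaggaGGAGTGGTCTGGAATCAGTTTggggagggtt
*Btg2* (chr1:134079107-134079136, minus strand, 4 mismatches): gcccgGGGAAAGTCCGGGCAGAGCCcgaga
*Sesn2* (chr4:132510453-132510492, minus strand, 5 mismatches): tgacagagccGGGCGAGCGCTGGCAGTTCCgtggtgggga
*Ercc5* (chr1:44147502-44147541, plus strand, 5 mismatches): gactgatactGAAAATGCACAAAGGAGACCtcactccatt

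The *Polk* sequence is the closest of these. It lies in the window of an internal start site, 231 bases upstream of that start, and as few as 1 mismatch was found in 58 of 32851 RefSeq windows (0.177%). The *Sesn1* element is also in the window of an internal start, and 11.7% of all windows held a match at least as close. Matches as close as those of *Gdf15* and *Btg2* occurred in 47.4% of all windows, and as close as those of *Sesn2* and *Ercc5* in 89.9%, where the median window had 5 mismatches. These are matches of letters, not binding sites, and sequence outside the windows was not searched. The ATF4 composite element TGATGNAA, searched on both strands, occurred in 1 of the 11 member windows (the same *Polk* window) and in 3.97% of all windows. The E-box CACGTG occurred in 1 member window, of *Gdf15*, and in 7.15% of all windows, and the CArG box of serum response factor in none of the 11 and in 1.63% of all.

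All 10 members passed the filter on low values and were tested. Of these, 9 had a log2 fold change above 0 (sg*Kmt2c* over sg*Trp53*), where 42.0% of all tested genes did, and their median was 0.92 against -0.09 over all tested genes. In 5 members every sg*Kmt2c* line was above every sg*Trp53* line (*Btg2*, *Sesn2*, *Polk*, *Ercc5* and *Gdf15*), a pattern that 5.72% of all tested genes had. In the other 5 the lines overlapped, and no member was lower in every sg*Kmt2c* line. None of the 10 had an adjusted p-value under 0.05 in limma or in limma voom, a call made upward in 0.0516% and in either direction in 0.129% of all tested genes. An unadjusted p-value under 0.05 was reached by 4 members, all higher in the sg*Kmt2c* lines, where 3.25% of all tested genes reached it in that direction and 8.58% in either. Without sg*Kmt2c* line 1 the same 4 were past an unadjusted p of 0.05, all higher (3.94% of all tested genes, limma). The same 5 members were then above in every line (10.9% of all tested genes). That was fixed in advance, since leaving out a line cannot undo a separation. With 3 lines a genotype, the exact two-sided permutation test cannot go below p = 0.1, the value it gave for each of the 5 separated members.

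**Figure D1:**
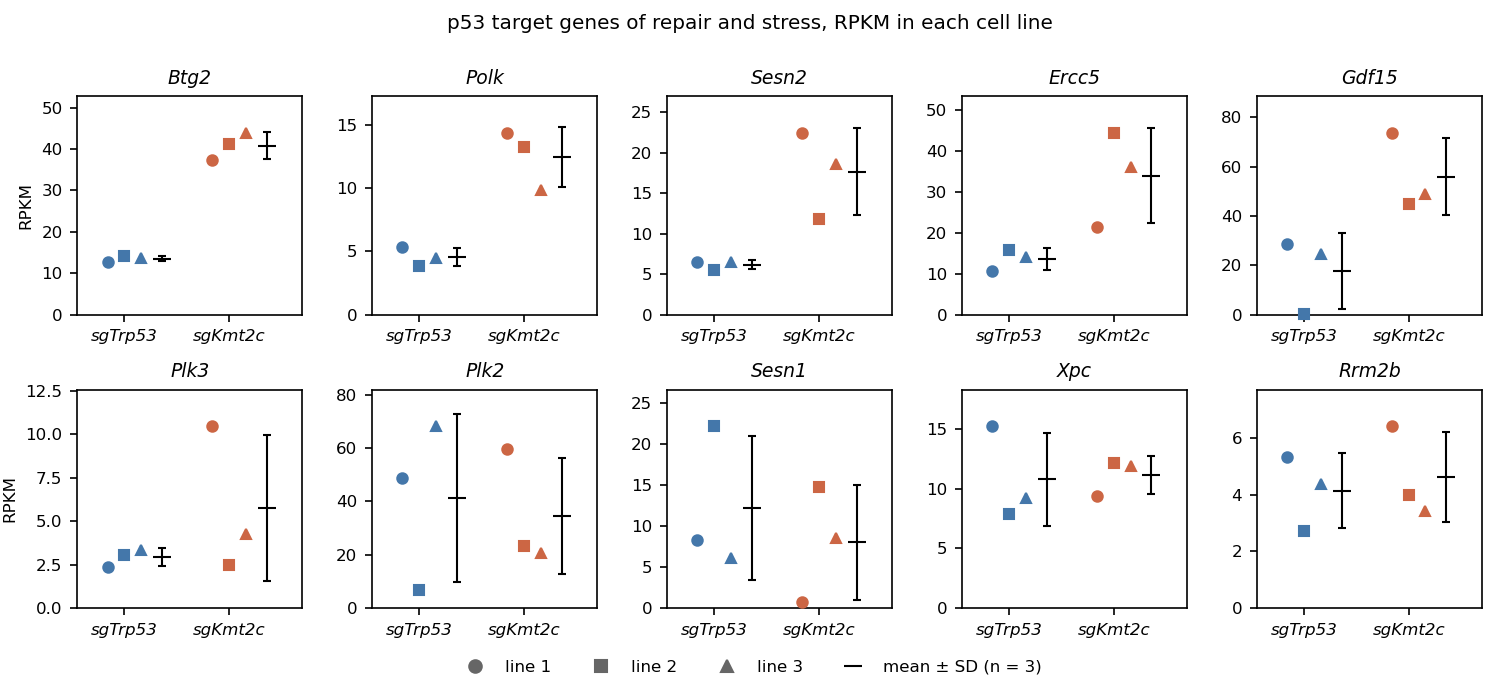
Expression of the 10 members in each line (RPKM, a linear axis from 0 for each gene), with circles, squares and triangles for lines 1, 2 and 3 of each genotype and black bars for the mean ± SD (n = 3). *Btg2*, *Polk*, *Sesn2*, *Ercc5* and *Gdf15* show no overlap between genotypes, and *Gdf15* in sg*Trp53* line 2 lies at 0.136 RPKM, on the axis.

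*Btg2* separated the genotypes most evenly. It encodes an antiproliferative cofactor of mRNA deadenylation and a classic p53 target, and the table places it at chr1:134075170-134079120 (GRCm38). It measured 12.8, 14.0 and 13.6 RPKM (214, 205 and 257 reads) against 37.3, 41.1 and 43.9 RPKM (482, 416 and 515 reads). The lines of a genotype were close to each other, with a coefficient of variation of 4.72% in sg*Trp53* and 8.16% in sg*Kmt2c*, and the lowest sg*Kmt2c* line was 2.65 times the highest sg*Trp53* line. Means were 13.5 ± 0.636 and 40.8 ± 3.33 RPKM (SD, n = 3 lines each), a ratio of 3.03. On the log2 scale the fold change came to 1.53 ± 0.18 (standard error), with a 95% confidence interval of 1.10 to 1.95 and an adjusted p-value of 0.0503 (limma). That value lies just above the threshold, and it fell on either side of it under the alternatives tried, from 0.0251 to 0.251 (limma). Without sg*Kmt2c* line 1 the log2 fold change was 1.59 (adjusted p = 0.0845, limma).

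The growth control genes of the polo-like kinase family did not follow *Btg2*. *Plk2*, a kinase of centriole duplication and stress signalling (chr13:110395044-110400844), measured 48.7, 6.57 and 68.3 RPKM against 59.7, 23.4 and 20.5 RPKM. Its lines ranged as widely within a genotype as between them, and sg*Trp53* line 2 was the lowest of all. The log2 fold change was 0.09 (95% confidence interval -1.98 to 2.17, adjusted p = 0.976, limma), an interval that leaves room for a change of either sign. *Plk3*, a kinase activated by DNA damage and osmotic stress (chr4:117128655-117133963), measured 2.35, 3.07 and 3.35 RPKM against 10.5, 2.48 and 4.28 RPKM, on 23 to 124 reads a library. Line 1 alone of the sg*Kmt2c* lines stood high, and line 2 was within the sg*Trp53* range. The log2 fold change of *Plk3* was 0.61 (95% confidence interval -0.48 to 1.71, adjusted p = 0.719, limma), and 0.14 without sg*Kmt2c* line 1. *Plk3* overlaps *Tctex1d4*, and whether counting used strand is not given in the sources used here.

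The sestrins are stress-induced inhibitors of mTORC1, the growth kinase complex, and act in part by binding the GATOR2 complex when leucine is scarce. *Sesn2* (chr4:132492032-132510501) measured 6.51, 5.52 and 6.47 RPKM (138, 102 and 155 reads) against 22.5, 11.9 and 18.6 RPKM (368, 152 and 277 reads). The sg*Trp53* lines lay close together, and the sg*Kmt2c* lines were all above them but spread wider. Means were 6.17 ± 0.564 and 17.7 ± 5.37 RPKM (SD, n = 3 lines each), a ratio of 2.86. This gave a log2 fold change of 1.34 ± 0.28 (standard error, 95% confidence interval 0.67 to 2.01), with an unadjusted p of 0.00232 and an adjusted p of 0.294 (limma). Without sg*Kmt2c* line 1 it was 1.15 (adjusted p = 0.334, and 0.200 to 0.872 over all alternatives, limma). The gene overlaps *Gm12981* in the deposited table.

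*Sesn1* (chr10:41810574-41908424), the sestrin most closely tied to p53 in other cells, had the opposite sign. It measured 8.22, 22.2 and 6.14 RPKM against 0.736, 14.7 and 8.56 RPKM. The low value of sg*Kmt2c* line 1 rested on 11 reads, and the highest value of all was in sg*Trp53* line 2. The log2 fold change was -0.85 (95% confidence interval -2.93 to 1.23, adjusted p = 0.771, limma). Without sg*Kmt2c* line 1 it was 0.09, so its sign rested on that library. *Sesn1* was the only member with a negative value over all lines.

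Among the DNA repair genes, *Polk* encodes the translesion DNA polymerase kappa (chr13:96480689-96542485). It measured 5.32, 3.82 and 4.50 RPKM (137, 86 and 131 reads) against 14.4, 13.2 and 9.80 RPKM (286, 206 and 177 reads). The genotypes did not overlap, and the lowest sg*Kmt2c* line was 1.84 times the highest sg*Trp53* line. Means were 4.55 ± 0.746 and 12.5 ± 2.38 RPKM (SD, n = 3 lines each), a ratio of 2.74. For *Polk* limma gave a log2 fold change of 1.27 ± 0.25 (standard error, 95% confidence interval 0.68 to 1.87), with an unadjusted p of 0.00162 and an adjusted p of 0.236, and 1.17 without sg*Kmt2c* line 1 (adjusted p = 0.318, and 0.165 to 0.836 over all alternatives, limma).

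*Ercc5* encodes XPG, the endonuclease that makes the 3′ incision of nucleotide excision repair (chr1:44147744-44181260). It measured 10.7, 15.8 and 14.1 RPKM against 21.4, 44.4 and 36.0 RPKM. Here sg*Kmt2c* line 1 was the lowest of its genotype, yet still 1.35 times the highest sg*Trp53* line. Means were 13.6 ± 2.62 and 33.9 ± 11.7 RPKM (SD, n = 3 lines each), a ratio of 2.50. For *Ercc5* limma gave a log2 fold change of 1.22 ± 0.31 (standard error, 95% confidence interval 0.47 to 1.97), with an unadjusted p of 0.00674 and an adjusted p of 0.388, and 1.51 without sg*Kmt2c* line 1 (adjusted p = 0.168, and 0.134 to 0.922 over all alternatives, limma).

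The other 2 repair genes had log2 fold changes near 0, with intervals that include changes of either sign. *Xpc*, the damage sensor that opens global genome nucleotide excision repair (chr6:91489305-91515884), measured 15.3, 7.92 and 9.20 RPKM against 9.35, 12.2 and 11.9 RPKM. Its highest value was in an sg*Trp53* line, and its log2 fold change was 0.08 (95% confidence interval -0.61 to 0.78, adjusted p = 0.934, limma). *Rrm2b*, the p53-inducible small subunit of ribonucleotide reductase that supplies deoxynucleotides outside S phase (chr15:37923952-37961318), measured 5.32, 2.72 and 4.39 RPKM against 6.42, 3.98 and 3.44 RPKM. Its lines overlapped throughout, with a log2 fold change of 0.12 (95% confidence interval -0.67 to 0.91, adjusted p = 0.915, limma). *Rrm2b* shares its locus with the pseudogene *Gm3362*, and *Xpc* overlaps the long noncoding RNA *Gm52912*, so reads at either may include those of the neighbour.

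*Gdf15* encodes a secreted cytokine of the TGF-beta superfamily that is induced by p53 and by mitochondrial and endoplasmic reticulum stress (chr8:70629393-70632456). It measured 28.8, 0.136 and 24.6 RPKM (242, 1 and 234 reads) against 73.8, 45.0 and 48.8 RPKM (480, 229 and 288 reads). The value of sg*Trp53* line 2 rested on 1 read, while the lowest sg*Kmt2c* line was 1.57 times the highest sg*Trp53* line. Its log2 fold change of 2.54 ± 1.21 (standard error, 95% confidence interval -0.36 to 5.45, adjusted p = 0.609, limma) was larger than that of any other member but had the widest interval. Without sg*Trp53* line 2 it was 1.01 (adjusted p = 0.727, limma), and without sg*Kmt2c* line 1 it was 2.33 (adjusted p = 0.664, and 0.492 to 0.922 over all alternatives, limma). The sg*Trp53* line 2 library was the lowest of the 6 for 6 of the 10 members, where it was the lowest for 16.7% of all tested genes, and it also had the highest fibroblast marker sum (996 RPKM) and the lowest epithelial marker sum (63.5 RPKM). *Col3a1* alone made up 814 RPKM of that fibroblast sum, while *Acta2* measured 10.2 RPKM in sg*Trp53* line 2 and 124 RPKM in line 3. The part of either marker sum in the *Gdf15* value was not tested.

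**Figure D2:**
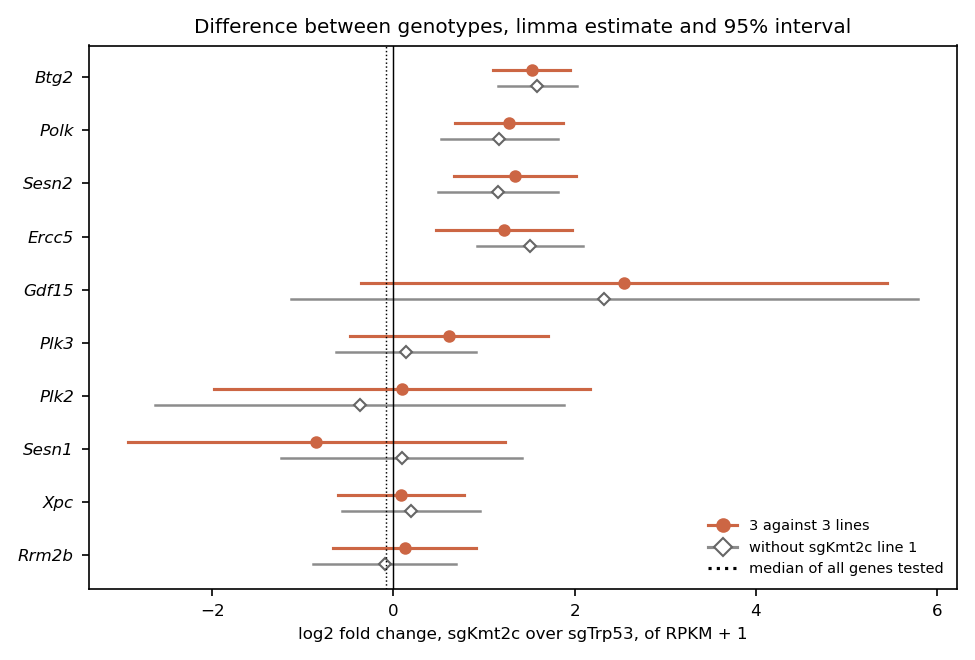
Log2 fold change (sg*Kmt2c* over sg*Trp53*, on log2(RPKM + 1)) of each member with its 95% confidence interval from limma (filled circles, 3 lines a genotype), and the same without sg*Kmt2c* line 1 (open diamonds). The dotted line marks the median of all tested genes, -0.09. The intervals of *Btg2*, *Polk*, *Sesn2* and *Ercc5* lie above 0, that of *Gdf15* runs from -0.36 to 5.45, and *Sesn1* moves from -0.85 to 0.09.

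Beside *Trp53* itself, 3 core p53 targets outside the list were read for the size of their differences. *Cdkn1a*, *Mdm2* and *Ccng1* were all above in every sg*Kmt2c* line, with a median log2 fold change of 3.03. *Ccng1*, cyclin G1, measured 16.5, 19.4 and 17.4 RPKM against 139, 134 and 191 RPKM (log2 fold change 3.03, adjusted p = 0.00963, limma). *Cdkn1a*, the p21 cell cycle inhibitor, measured 17.3, 7.54 and 36.1 RPKM against 295, 217 and 261 RPKM (3.84, adjusted p = 0.068, limma). *Mdm2*, the ubiquitin ligase that restrains p53, had a value of 1.60 (adjusted p = 0.0563, limma), close to that of *Btg2*. These genes were chosen as p53 targets with earlier results of the same libraries known, so they give no independent support.

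A second set of 12 genes, listed as p53 targets with roles in repair, metabolism and stress, was less uniform. Whether p53 drives each of them in these mouse cells was not tested. Of the 11 tested, 6 were higher and 5 lower in the sg*Kmt2c* lines, with a median log2 fold change of 0.09, and 3 had an unadjusted p-value under 0.05, all higher (3.25% of all tested genes). *Trp53inp1* alone kept that call without sg*Trp53* line 1 or without sg*Kmt2c* line 3. *Trp53inp1*, an autophagy and stress cofactor of p53, measured 7.68, 13.1 and 7.87 RPKM against 76.0, 45.6 and 75.6 RPKM (log2 fold change 2.66, adjusted p = 0.0503, limma). *Ddit4*, the mTORC1 inhibitor REDD1, measured 30.3, 41.8 and 30.3 RPKM against 162, 43.8 and 95.4 RPKM (1.36, adjusted p = 0.506, limma). For *Ddit4* sg*Kmt2c* line 2 lay only just above the sg*Trp53* lines. *Ier5*, a stress-induced growth regulator, had a log2 fold change of 1.04 with overlapping lines (adjusted p = 0.535, limma). *Ddb2*, the ultraviolet damage sensor that works ahead of *Xpc*, measured 5.28, 5.24 and 2.27 RPKM against 5.27, 3.78 and 2.65 RPKM (-0.08, adjusted p = 0.951, limma). Both damage sensors, *Xpc* and *Ddb2*, thus had overlapping lines, unlike *Ercc5*. Without sg*Kmt2c* line 1 the median of the 11 was -0.01, with 5 higher and 6 lower.

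Relatives of the members mostly overlapped between genotypes. Of 12 tested, 5 were higher and 7 lower, with a median log2 fold change of -0.15 and none past the adjusted threshold in limma. *Tob1*, an antiproliferative relative of *Btg2*, measured 35.8, 47.2 and 22.3 RPKM against 205, 108 and 125 RPKM. No line overlapped, and the log2 fold change was 2.03 (unadjusted p = 0.000873, adjusted p = 0.181, limma), while *Btg1* stood at 0.15 (adjusted p = 0.905, limma) and *Tob2* at 0.12. *Btg3*, of the same family, had the opposite sign, with 10.4, 12.5 and 13.5 RPKM against 2.25, 10.2 and 9.60 RPKM, below in every sg*Kmt2c* line (-0.85, adjusted p = 0.665, limma). *Plk4*, the centriole duplication kinase, was below in every sg*Kmt2c* line (log2 fold change -0.84, unadjusted p = 0.0368, adjusted p = 0.562, limma). Its unadjusted call was kept without sg*Kmt2c* line 3 and lost when any other line was left out. *Plk1*, the mitotic kinase, was at -0.19 with overlapping lines. *Sesn3*, the remaining sestrin, was at -0.22, the translesion polymerases *Polh*, *Poli* and *Rev1* at -0.20, -0.10 and 0.41, and the ribonucleotide reductase subunits *Rrm1* and *Rrm2* at -0.67 and 0.39, all with overlapping lines. The median of the 12 relatives was 0.12 without sg*Kmt2c* line 1, with 8 higher and 4 lower, and 0.08 with array weights on all lines.

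Genes that work with the members in repair and in mTORC1 control were counted next. Of 22 other nucleotide excision repair genes, 8 were higher and 14 lower (median log2 fold change -0.24). In limma 1 was past an unadjusted p of 0.05, *Gtf2h3*, a TFIIH subunit (-0.66, adjusted p = 0.45), where 5.34% of all tested genes were past it and lower. There were 4 such genes without sg*Kmt2c* line 3, all lower (8.52% of all tested genes). There were 0 without sg*Trp53* line 1, where 3.83% of all tested genes were past it and lower. *Ercc1*, part of the nuclease that makes the 5′ incision opposite XPG, measured 9.78, 8.20 and 10.4 RPKM against 14.7, 11.2 and 11.4 RPKM (log2 fold change 0.36, adjusted p = 0.679, limma), where that of *Ercc5* was 1.22. The next list, below called GATOR and TOR genes, also held Rag and Rheb GTPases, the kinase AMPK, *Tsc1* and *Tsc2*. Of its 19 genes, 6 were higher and 13 lower (median -0.30), and 5 were below in every sg*Kmt2c* line, against 10.4% of all tested genes. *Tsc2* (-0.67, adjusted p = 0.528) and *Tsc1* (-0.53, adjusted p = 0.57), which together restrain mTORC1, were the 2 with an unadjusted p-value under 0.05 in limma. Both were lower, and 5.34% of all tested genes were past that p and lower. Neither *Tsc2* nor *Tsc1* kept that call without sg*Kmt2c* line 1, without sg*Kmt2c* line 3, without sg*Trp53* line 2 or with array weights. *Tsc2* kept it and *Tsc1* did not under quantile and median-of-ratios scaling, without the eBayes trend, with a replicate block and with voom. The same held without sg*Trp53* line 3, without sg*Kmt2c* line 2 and with sg*Kmt2c* lines 2 and 3 as 1 sample. *Tsc1* alone kept it without sg*Trp53* line 1. Without sg*Kmt2c* line 3, *Rraga* and *Seh1l* were past it instead, both lower (8.52% of all tested genes). *Seh1l* was also past it with no filter and with sg*Kmt2c* lines 2 and 3 as 1 sample. The sg*Kmt2c* line 1 library was the lowest of the 6 for 11 of these 19 genes. Without it, the GATOR and TOR genes had a median of -0.10, with 6 higher and 13 lower. Of them 5 were below in every line, as were 15.9% of all tested genes, a count that leaving out a line cannot lower. The repair genes then had a median of 0.00, with 11 higher and 11 lower. Quantile and median-of-ratios scaling shifted the balance over all genes at an unadjusted p-value under 0.05 in limma, from 377 higher and 620 lower to 501 and 466, and to 485 and 475. Under them the median of the GATOR and TOR genes was -0.26 and -0.22.

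*Sesn2*, *Gdf15* and *Ddit4* can also be induced by the integrated stress response, in which ATF4 drives amino acid and redox genes, and 16 genes of that response were read beside them. Of these, 11 were higher and 5 lower, with a median log2 fold change of 0.36. None separated the genotypes, where 5.72% of all tested genes were above and 10.4% below in every sg*Kmt2c* line. None was past an unadjusted p of 0.05 in limma (8.58% of all tested genes). That count rested on the set of lines. Without sg*Kmt2c* line 2, 3 genes were past it and higher (3.74% of all tested genes). Without sg*Kmt2c* line 1, 2 were past it and lower (5.31% of all tested genes). The sg*Kmt2c* line 1 library was the highest of the 6 for 14 of the 16 genes, where it was the highest for 23.6% of all tested genes, and sg*Kmt2c* line 2 was the lowest for 11, where it was the lowest for 17.8%. *Atf4* measured 165, 104 and 190 RPKM against 474, 78.5 and 190 RPKM. *Ddit3*, the CHOP factor, measured 10.3, 12.0 and 12.4 RPKM against 60.8, 11.3 and 9.46 RPKM. Both were far higher in sg*Kmt2c* line 1 than in any other line. Without sg*Kmt2c* line 1, 3 of the 16 genes were higher and 13 lower, with a median log2 fold change of -0.32 (-0.13 with array weights on all lines). Summed over the 16 genes, RPKM was 1131, 1071 and 1364 against 2994, 730 and 1129. *Sesn2*, *Gdf15* and *Ddit4* were also highest in sg*Kmt2c* line 1. Within the sg*Kmt2c* lines each of them ranked as the sum did, with line 2 lowest. In sg*Kmt2c* line 2, *Sesn2* measured 11.9 RPKM (at most 6.51 in the sg*Trp53* lines), *Gdf15* 45.0 RPKM (at most 28.8) and *Ddit4* 43.8 RPKM (at most 41.8). The part of the integrated stress response in these differences was not tested.

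**Figure D3:**
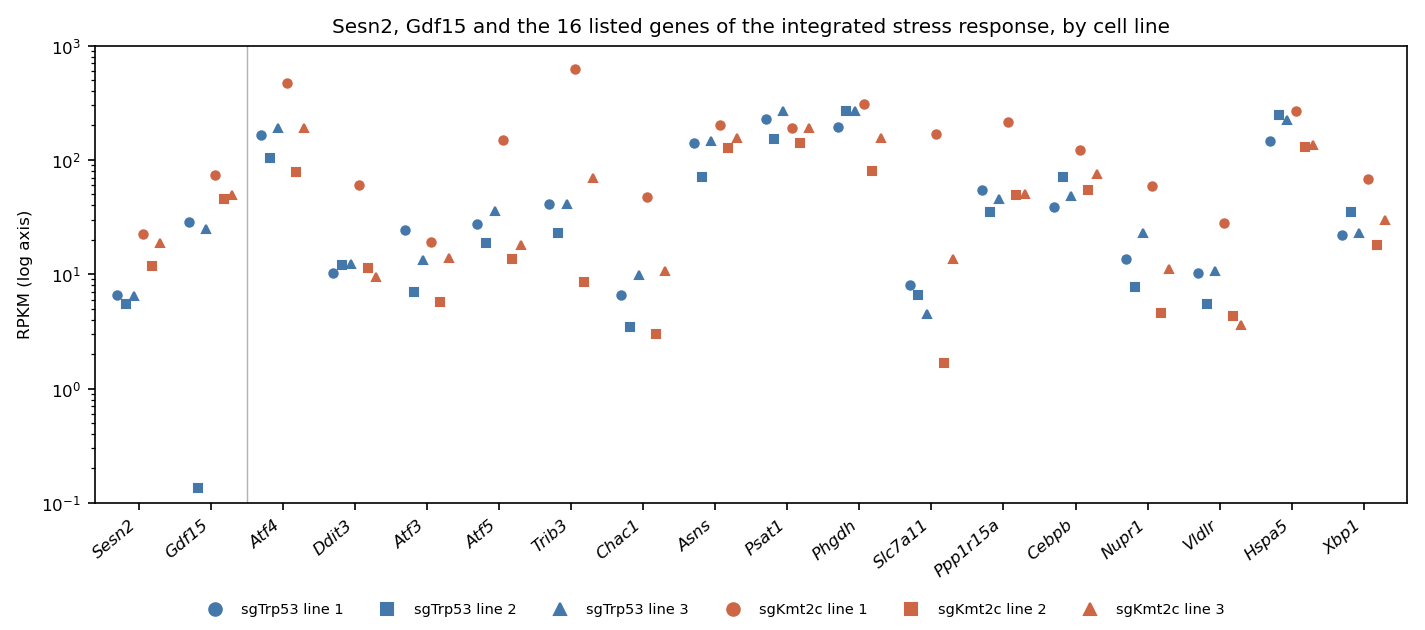
*Sesn2* and *Gdf15* (left of the grey line) and 16 integrated stress response genes in each line (RPKM, log axis), blue for sg*Trp53* and red for sg*Kmt2c*, with circles, squares and triangles for lines 1, 2 and 3. In 14 of the 16 genes sg*Kmt2c* line 1 was the highest library, and in 11 sg*Kmt2c* line 2 was the lowest.

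*Btg2*, *Plk2*, *Plk3* and *Gdf15* also belong to the wider circle of genes that serum or handling can induce, so immediate early genes were counted. Of 13 tested, 8 were higher and 5 lower, with a median log2 fold change of 0.10 (-0.21 without sg*Kmt2c* line 1, 5 higher and 8 lower). *Junb* (0.84, adjusted p = 0.491) and *Zfp36* (0.88, adjusted p = 0.503) were above in every sg*Kmt2c* line, both past an unadjusted p of 0.05 in limma. Over all tested genes 5.72% were above in every line, and 3.25% were past that p and higher. The number of listed genes past it was 0 without sg*Trp53* line 1 and 0 without sg*Kmt2c* line 2. Without sg*Trp53* line 3 it was 1, higher (2.1% of all tested genes). Without sg*Kmt2c* line 1 it was 4, with 3 higher and 1 lower (3.94% and 5.31% of all tested genes). *Egr1* measured 25.0, 14.6 and 25.4 RPKM against 5.77, 20.02 and 16.3 RPKM, and *Fos* 4.74, 3.66 and 2.75 RPKM against 20.5, 3.86 and 4.88 RPKM. Neither separated the genotypes, and sg*Kmt2c* line 1 was the lowest library for *Egr1* and the highest for *Fos*.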

How the data were processed

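RNA-seq libraries (TruSeq RNA v2) of 3 *Myc*; sg*Trp53* and 3 *Myc*; sg*Kmt2c* lines were grouped by their labels. Per the submitters' processing notes and methods, the authors trimmed reads with Trimmomatic, aligned them to GRCm38 with STAR, used HTSeq for counting and deposited the matrix as RPKM (FPKM in their methods). A second deposited table holds the authors' own DESeq2 1.8.2 fold changes and p-values and was not used. Of 21065 rows, 209 carry no values, and 6 sample columns of other samples were not used. Values multiplied by transcript length were whole reads for 100% of 92301 values above 0 (tolerance 0.1 read). At 2 kb, 1 read was worth 0.0726 to 0.136 RPKM.

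The 11617 genes that reached an RPKM of 1 in 3 or more libraries were tested with limma 3.58.1 in R 4.3.3 on log2(RPKM + 1) (eBayes with trend, genotype as the only term, Benjamini-Hochberg adjustment over all genes). Changes of low genes are understated on that scale. The test was checked on simulated data. That simulation used the same spread for every gene, taken from the sg*Trp53* libraries, and held no library that stands apart. A member was "above in every line" when its lowest sg*Kmt2c* RPKM exceeded its highest sg*Trp53* RPKM.

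The members and gene lists were chosen with earlier results of these data known. Named in the text are all members, the targeted genes, up to 4 genes of each list with an unadjusted p-value under 0.05, and whatever their p-value *Sesn3*, *Plk1*, *Plk4*, *Btg1*, *Tob1*, *Rrm1*, *Rrm2*, *Polh*, *Ddb2*, *Ercc1*, *Atf4*, *Ddit3*, *Egr1* and *Fos*. *Btg3*, *Tob2*, *Poli*, *Rev1*, *Rraga*, *Seh1l*, *Alb*, *Apob*, *Hnf4a*, *Col3a1*, *Acta2*, *Cd3e*, *Cd79a*, *Cd68* and *Lyz2* were added from the lists after their values were seen. Alternatives changed the pseudocount (0.1, 0.5), filter (none, RPKM 0.5), scaling (TPM, quantile, median-of-ratios), moderation, array weights, a replicate block, each line left out, and sg*Kmt2c* lines 2 and 3 as 1 sample. A limma voom fit of the recovered reads was chosen after seeing the data. Plots were drawn with matplotlib.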

Additional observations from a re-analysis of the deposited data

How the results depend on the processing

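With 3 lines a genotype and 1 library that stands apart, changes under about the spread between lines could not be shown, and members with few reads (*Plk3*, *Sesn1* in sg*Kmt2c* line 1, *Gdf15* in sg*Trp53* line 2) are the least precise. The number of members with an adjusted p-value under 0.05 was 0 and became 1, *Btg2*, under quantile normalization (adjusted p = 0.0484), median-of-ratios scaling (0.0425) and array weights (0.0251, limma). The same 4 members had an unadjusted p-value under 0.05 under every alternative (limma), all higher, joined by *Gdf15* in 4 of them. Of all tested genes, 2.1% to 4.31% were past it and higher. The same 5 members were above in every line, joined by *Xpc* or *Plk3* in 3 alternatives, where 10.4% to 11.1% of all tested genes were. Over all alternatives that share ran from 4.32% to 11.4%. Only a change of scaling or the voom fit could have undone a separation. The median log2 fold change of the members, 0.92, was 0.72 with array weights and 1.11 with voom, and 0.67 to 1.00 when each line was left out in turn. Array weights turned *Sesn1* to 0.0715, *Rrm2b* to -0.0798 and *Plk2* to -0.79. Leaving out each line in turn gave -1.50 to 0.0908 for *Sesn1*, -0.0922 to 0.34 for *Xpc*, -0.10 to 0.29 for *Rrm2b*, -0.89 to 0.71 for *Plk2* and 1.01 to 3.36 for *Gdf15*, with the turned signs of *Xpc*, *Rrm2b* and *Plk2* without sg*Trp53* line 2 (-0.0922, -0.09 and -0.89) and those of *Sesn1*, *Rrm2b* and *Plk2* without sg*Kmt2c* line 1 (0.0908, -0.10 and -0.37). The cause was not tested. Replicate numbers are shared by the genotypes but were not taken as pairing, since the sample labels state none. The correlations of deviations between lines of the same number were 0.192, 0.399 and 0.0316, all positive. Of the 6 lines, 4 correlated best with their own number, so these values are no reason against pairing. With the number as a replicate block, 0 genes passed the adjusted threshold (15 without it), 1085 had an unadjusted one (997 without it), and 5 members did, *Gdf15* added, while *Trp53* was at an adjusted p of 0.0771 (limma). Over all alternatives 0 to 26 genes passed the adjusted threshold (0 when any line but sg*Kmt2c* line 1 was left out, 8 without that line), with 5 when no filter was used, 6 with a pseudocount of 0.1, 26 with array weights, 3 with voom and 0 with sg*Kmt2c* lines 2 and 3 as 1 sample. In place of the planned voom fit with TMM, voom was run with median-of-ratios library sizes, and the planned edgeR and DESeq2 fits of the recovered reads were not run.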
